A study of Mus musculus with 8 samples.

Results

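The 8 tetraspanin genes described here, Cd9, Cd37, Cd53, Cd63, Cd63-ps, Cd81, Cd82 and Cd151, were chosen by name from the 28239 gene symbols of a count table of mouse Tregs, with values from these same libraries already known. All 8 symbols were in the table, and all 8 passed the filter on low counts. The study compared Tregs made from WT mice with Tregs made from Alox15-/- mice, labelled as deficient in a lipoxygenase that oxidises polyunsaturated fatty acids into lipid mediators. Naive CD4+ T cells were taken from spleens by removing other cells with magnetic beads, and were cultured for 2 days with IL-2, TGF-β and beads carrying antibodies to CD3 and CD28. RNA was read by MACE-seq, which counts sequence tags from the 3′ ends of transcripts, in 4 libraries of each genotype. Both genotypes are labelled as C57BL/6 and received the same culture treatment. The mice were young adults of both sexes, the WT animals came from Charles River and the Alox15-/- animals from The Jackson Laboratory, so that genotype and colony cannot be told apart. The labels do not say which animal gave which library, and p-values therefore measure the spread between these libraries only.

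Tetraspanins are small proteins that cross the membrane several times and gather integrins, receptors and enzymes into clusters at the cell surface or on internal membranes. In T cells, CD9, CD37, CD53, CD81, CD82 and CD151 sit mainly at the cell surface, where they influence adhesion, costimulation and migration. CD63 is found mostly on late endosomes, lysosomes, secretory granules and extracellular vesicles, and its appearance at the surface is used as a sign of granule release by basophils and mast cells. Cd63-ps is a processed pseudogene, a copy of the Cd63 transcript inserted elsewhere in the genome.

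Start regions are shown for Cd63, Cd53 and Cd9, whose libraries did not overlap between the genotypes, and for Cd81, whose means were close in both genotypes, so that their base composition can be read beside the counts. Each window of 300 bases runs from 250 bases before to 50 bases after a RefSeq transcription start in GRCm38.p6, written 5′ to 3′ on the strand of the gene. Capitals mark GGGCGG (a GC box), TATAAA or AGGAAG (the core of an ETS family motif), searched on both strands and sharing no letters in these windows. The Cd63 window lies at chr10:128909095-128909394 on the plus strand, inside the annotated gene, the Cd53 window at chr3:106790100-106790399 on the minus strand, the Cd9 window at chr6:125494711-125495010 on the minus strand, and the Cd81 window at chr7:143052500-143052799 on the plus strand.
Cd63: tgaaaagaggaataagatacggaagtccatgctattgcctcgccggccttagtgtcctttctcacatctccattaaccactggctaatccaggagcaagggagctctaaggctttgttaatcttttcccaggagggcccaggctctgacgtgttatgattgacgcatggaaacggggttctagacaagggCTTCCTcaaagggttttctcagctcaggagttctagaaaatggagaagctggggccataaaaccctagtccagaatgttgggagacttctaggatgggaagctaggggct
Cd53: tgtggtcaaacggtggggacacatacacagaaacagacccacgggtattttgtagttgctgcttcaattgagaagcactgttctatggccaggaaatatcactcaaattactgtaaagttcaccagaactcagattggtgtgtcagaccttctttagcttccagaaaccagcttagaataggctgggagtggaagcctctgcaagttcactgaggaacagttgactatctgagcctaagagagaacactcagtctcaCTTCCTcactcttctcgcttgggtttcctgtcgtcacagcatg
Cd9: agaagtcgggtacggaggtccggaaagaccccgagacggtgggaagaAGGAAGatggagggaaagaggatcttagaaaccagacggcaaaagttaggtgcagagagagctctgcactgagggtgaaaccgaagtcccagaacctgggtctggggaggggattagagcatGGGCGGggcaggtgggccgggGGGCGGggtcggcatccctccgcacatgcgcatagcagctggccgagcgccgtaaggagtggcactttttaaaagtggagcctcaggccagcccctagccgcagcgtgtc
Cd81: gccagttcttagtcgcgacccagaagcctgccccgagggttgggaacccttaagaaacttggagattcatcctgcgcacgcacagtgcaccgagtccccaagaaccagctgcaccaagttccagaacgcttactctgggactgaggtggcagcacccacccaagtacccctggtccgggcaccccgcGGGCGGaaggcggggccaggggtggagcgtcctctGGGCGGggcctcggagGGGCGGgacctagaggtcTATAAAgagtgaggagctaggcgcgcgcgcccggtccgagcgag

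The Cd63 window held 0 GC boxes, 0 TATAAA matches and 1 ETS core, with 6 CpG dinucleotides and a GC content of 49.3%. The Cd53 window was similar, with 0 GC boxes, 1 ETS core, 4 CpG dinucleotides and 46.3% GC. The Cd9 window held 2 GC boxes, 1 ETS core and 18 CpG dinucleotides at 61.3% GC. The Cd81 window held 3 GC boxes, 1 TATAAA match, 0 ETS cores and 23 CpG dinucleotides at 65.7% GC. Cd63 and Cd53 were thus below, and Cd9 and Cd81 above, the median of 7 CpG dinucleotides per window over 32851 RefSeq start regions. The GC box was present in 35.7% of these regions, TATAAA in 13.6% and the ETS core in 35.4%, so each match is common and describes letters only.

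The libraries held between 3723151 and 9538962 counted tags, with a median of 5907410.5, and a typical gene varied by 14.5% between libraries of 1 genotype beyond counting error. The targeted gene was checked first, and its level went against the labels. Alox15 measured 70.5, 69.2, 63.7 and 65.3 CPM in the libraries labelled Alox15-/- 1 to 4, against 1.88, 2.56, 7.77 and 9.02 CPM in WT 1 to 4, a log2 fold change of 3.65 ± 0.299 (SE). Where the deleted part of the gene lies relative to its 3′ tags was not examined. An exchange of the labels, transcription of the targeted gene and other sources of these tags were not tested and cannot be told apart. Genotypes are given below as labelled, and every direction would turn if the labels were exchanged. T cell markers were present at 3895 to 4397 CPM in the libraries labelled Alox15-/- and 4153 to 4558 CPM in WT, summed over 12 genes, and Cd3e averaged 270.0 and 256 CPM. Treg markers summed to 2211 to 2429 CPM and 2199 to 2771 CPM over 6 genes, none of which passed the test. Foxp3, the transcription factor that defines Tregs, averaged 93.5 CPM in the libraries labelled Alox15-/- and 125 CPM in WT, with overlapping groups (log2 fold change -0.42, adjusted p = 0.655). Levels are CPM, counts scaled to a common library size after TMM correction in edgeR, and differences are log2 fold changes of Alox15-/- minus WT from edgeR's quasi-likelihood test over 12700 genes, with Benjamini-Hochberg adjusted p-values.

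Cd63 and its pseudogene were many times higher in the libraries labelled Alox15-/-, Cd53 was moderately higher, and the mean levels of Cd37 and Cd81 were close in both genotypes. Cd151 rested on too few tags to narrow its difference. Of the 8 genes, 3 passed the adjusted p threshold of 0.05 (Cd53, Cd63 and Cd63-ps), and all 3 were higher in the libraries labelled Alox15-/-. Of these, Cd63-ps entered the test only through its level in that group, and 2 of the other 7 genes passed. Over all genes tested, 1.24% passed in either direction, 1.05% were higher and 0.197% were lower. Because the genes were chosen with this contrast known, their counts and p-values are given as a description, and nothing is read from the comparison with these shares. The groups did not overlap for 4 of the 8 genes, the 3 above and Cd9, whereas over all genes they did not overlap for 5.25%. The median log2 fold change was 0.40 over the 8 genes and -0.01 over all genes. The threshold fell between Cd53, with an adjusted p of 0.0332, and Cd9, with 0.0541.

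**Figure D1:**
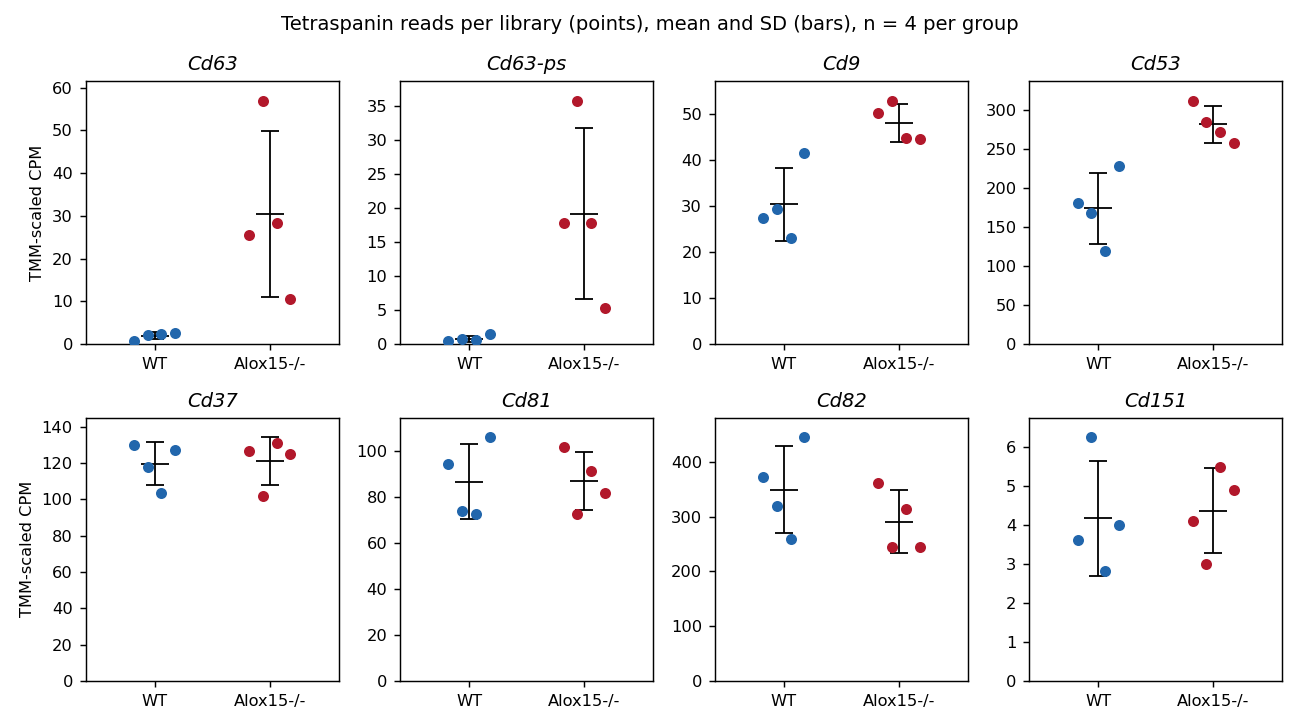
Scaled counts (TMM-scaled CPM, vertical axes from 0) of the 8 genes in 4 WT libraries (blue) and 4 libraries labelled Alox15-/- (red), with the mean and SD as bars. Cd63 lay between 10.5 and 57.0 CPM in the libraries labelled Alox15-/- and at most at 2.73 CPM in WT, whereas the points of Cd37, Cd81, Cd82 and Cd151 overlapped.

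Cd63 encodes the tetraspanin of late endosomes and granules (ENSMUSG00000025351.14, GRCm38 chromosome 10, 128900989 to 128912822, plus strand). Its level was 25.6, 57.0, 28.4 and 10.5 CPM in the libraries labelled Alox15-/- 1 to 4 and 0.784, 2.08, 2.32 and 2.73 CPM in WT 1 to 4. The lowest Alox15-/- library was thus above the highest WT library, and the second Alox15-/- library was the highest of all. The means were 30.4 ± 19.4 CPM (SD, n = 4) and 1.98 ± 0.840 CPM (n = 4), a log2 fold change of 3.90 ± 0.461 (SE), or 14.9-fold with a 95% confidence interval of 7.54 to 29.5 (edgeR, adjusted p = 2.2e-04). The WT values rested on only 5, 13, 23 and 13 tags, against 106, 210, 150 and 73 in the libraries labelled Alox15-/-. Within the libraries labelled Alox15-/-, the highest level was 5.43 times the lowest, the widest spread of the 7 protein-coding genes in that group. In bulk RNA, more cells of a type and more RNA per cell cannot be told apart.

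Cd63-ps (ENSMUSG00000085939.3, chromosome 18, 50134726 to 50135600, plus strand) is annotated as a transcribed processed pseudogene and lies within the span of Hsd17b4, a gene of peroxisomal fatty acid breakdown on the same strand. Its level was 17.9, 35.8, 17.8 and 5.32 CPM in the libraries labelled Alox15-/- 1 to 4 and 0.470, 0.801, 0.605 and 1.47 CPM in WT 1 to 4. The groups did not overlap, and the same library, Alox15-/- 2, was the highest for both genes. The means were 19.2 ± 12.6 CPM (SD, n = 4) and 0.836 ± 0.443 CPM (n = 4), a log2 fold change of 4.54 ± 0.546 (SE) (edgeR, adjusted p = 2.4e-04), with 3, 5, 6 and 7 tags in the WT libraries. Cd63-ps reached 2 CPM in no WT library and passed the filter only through the 4 libraries labelled Alox15-/-, so its inclusion among the genes tested already required this difference. Hsd17b4 itself averaged 48.2 ± 3.90 and 54.9 ± 3.69 CPM, and its groups overlapped (log2 fold change -0.18, adjusted p = 0.738).

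The pseudogene is a near copy of the Cd63 transcript, so tags may be counted on either. Over 849 aligned bases of the GENCODE transcripts, 835 were identical (98.4%), and the longest identical run was 253 bases. The last 300 bases, where 3′ tags fall, held 6 of the 14 differences. A tag of 50 bases would find no difference in 48.4% of the 800 possible positions, and a tag of 75 bases in 34.6% of 775. These positions cover the whole alignment, and the last 300 bases were not counted apart. The read length and the handling of tags with several matches were not stated in the sources used here, and the division of reads between both genes is therefore uncertain.

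The share of the pair's tags counted on Cd63-ps was 41.1%, 38.6%, 38.5% and 33.6% in the libraries labelled Alox15-/- 1 to 4, and 37.5%, 27.8%, 20.7% and 35.0% in WT 1 to 4. All exact binomial 95% intervals of the WT libraries, the narrowest of which ran from 7.99% to 39.7% for 29 tags, took in values found in the libraries labelled Alox15-/-. Pooled, the share was 38.5% of 876 tags (exact binomial 95% interval 35.2% to 41.8%) and 28.0% of 75 tags (18.2% to 39.6%), intervals that overlap and cover counting error only. The difference between the genotypes in this share was not tested, and overlapping intervals do not settle whether the division of the pair's reads differed.

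**Figure D2:**
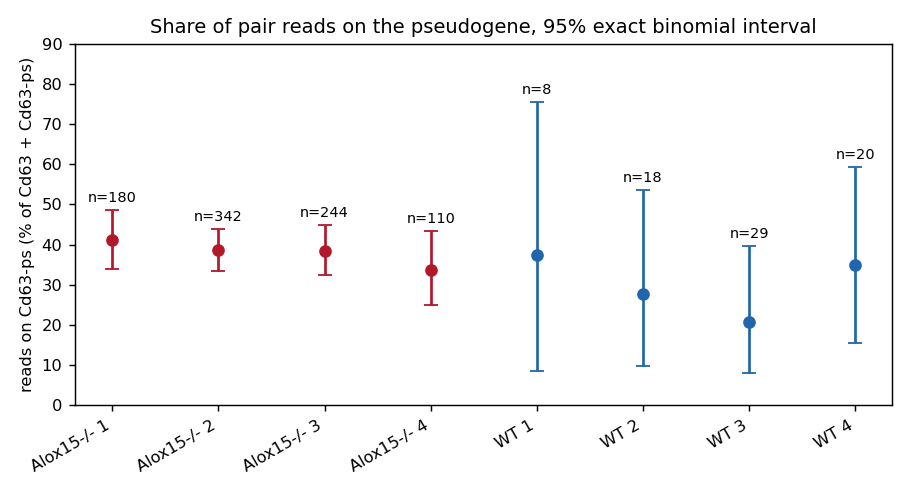
Percent of the tags on Cd63 and Cd63-ps that were counted on Cd63-ps, per library, with exact binomial 95% intervals and the number of tags as n. Libraries labelled Alox15-/- (red) lay between 33.6% and 41.1%, and WT libraries (blue), with 8 to 29 tags each, between 20.7% and 37.5% with wide intervals.

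Summed over both genes, which removes the uncertain division, the level was 43.5, 92.8, 46.1 and 15.8 CPM in the libraries labelled Alox15-/- 1 to 4 and 1.25, 2.88, 2.93 and 4.20 CPM in WT 1 to 4. The groups again did not overlap. The means of 49.6 ± 31.9 CPM and 2.82 ± 1.21 CPM (SD, n = 4 each) gave a log2 fold change of 4.13 ± 0.463 (SE), with a 95% confidence interval of 3.14 to 5.12 (edgeR, adjusted p = 1.3e-04). With the pair as 1 gene, 2 of the 7 remaining entries passed the threshold.

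Cd53 encodes a tetraspanin largely restricted to leukocytes that associates with integrins and CD45 (ENSMUSG00000040747.9, chromosome 3, 106759921 to 106790149, minus strand). Its level was 312, 284, 271 and 257 CPM in the libraries labelled Alox15-/- 1 to 4 and 181, 167, 119 and 228 CPM in WT 1 to 4. The Alox15-/- libraries lay close together with a coefficient of variation of 8.23%, while WT varied by 25.9%, and the groups did not overlap. The means were 281 ± 23.1 and 174 ± 45.0 CPM (SD, n = 4 each), a log2 fold change of 0.70 ± 0.153 (SE), or 1.62-fold with a 95% confidence interval of 1.29 to 2.03 (edgeR, adjusted p = 0.0332). This call was lost without Alox15-/- library 1, 2, 3 or 4 (adjusted p = 0.136, 0.109, 0.105 and 0.0538) and without WT library 1 or 2 (0.105 and 0.121), and held without WT library 3 or 4 (0.0351 and 0.0018), with log2 fold changes of 0.56 to 0.86.

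Cd9 encodes a tetraspanin that binds integrins and immunoglobulin superfamily partners and is abundant on platelets and extracellular vesicles (ENSMUSG00000030342.8, chromosome 6, 125460266 to 125494791, minus strand). Its level was 50.2, 52.9, 44.8 and 44.5 CPM in the libraries labelled Alox15-/- 1 to 4 and 27.4, 29.3, 23.1 and 41.6 CPM in WT 1 to 4. All Alox15-/- libraries were above all WT libraries, with WT 4 the nearest to them. The means were 48.1 ± 4.15 and 30.4 ± 7.91 CPM (SD, n = 4 each), and the log2 fold change of 0.68 ± 0.159 (SE) missed the threshold (edgeR, adjusted p = 0.0541). Without WT 4 it was 0.86 with an adjusted p of 0.0016, and without any other library the adjusted p was 0.0927 to 0.218.

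Among the other surface tetraspanins, Cd81, which takes part in costimulation of T cells (chromosome 7, 143052739 to 143067934, plus strand), measured 102, 72.5, 91.3 and 81.6 CPM in the libraries labelled Alox15-/- 1 to 4 and 94.4, 73.8, 72.7 and 106 CPM in WT 1 to 4. Cd37, a leukocyte tetraspanin that restrains T cell proliferation (chromosome 7, 45233632 to 45239115, minus strand), measured 127, 102, 131 and 125 CPM against 130, 118, 103 and 127 CPM. Both genes had overlapping groups. Their log2 fold changes were 0.01 (95% confidence interval -0.29 to 0.31) and 0.02 (-0.21 to 0.26), intervals that reach about as far below 0 as above it (edgeR, adjusted p = 0.998 and 0.981).

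Cd82, which slows cell migration and associates with integrins and CD4 (chromosome 2, 93419111 to 93463140, minus strand), measured 361, 244, 314 and 245 CPM in the libraries labelled Alox15-/- 1 to 4 and 373, 319, 258 and 445 CPM in WT 1 to 4. It was the only one of the 8 genes with a negative log2 fold change, -0.26 ± 0.160 (SE), which did not pass (edgeR, adjusted p = 0.760), and the groups overlapped. Cd151, the partner of laminin-binding integrins (chromosome 7, 141467392 to 141471473, plus strand), was counted with only 11 to 39 tags per library. It measured 4.10, 2.99, 5.48 and 4.89 CPM against 3.61, 6.25, 2.82 and 3.99 CPM, and its log2 fold change of 0.12 had the widest 95% confidence interval of the 7 protein-coding genes apart from Cd63, -0.52 to 0.75 (edgeR, adjusted p = 0.958).

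The ratio of Cd9 to Cd81 tags within a library, which does not depend on scaling, was 0.493, 0.730, 0.491 and 0.545 in the libraries labelled Alox15-/- 1 to 4 and 0.291, 0.397, 0.318 and 0.392 in WT 1 to 4. The groups did not overlap in this ratio. Because the mean levels of Cd81 were close in both genotypes, the ratio largely repeats the Cd9 levels. Its outcome depends on the gene chosen as divisor. The summed level of the 7 protein-coding genes was 863 ± 92.2 and 765 ± 157 CPM (SD, n = 4 each), and here the groups overlapped, from 769 to 981 and from 581 to 955 CPM. Several of the genes overlap others on the opposite strand, Cd9 with Gm28809 and Gm26728, Cd37 with Tead2, Cd81 with R74862, Cd82 with Gm10804 and Cd151 with Gm10575, and the use of strand in counting was not stated. The 6 overlapping genes averaged at most 2.84 CPM in either group.

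**Figure D3:**
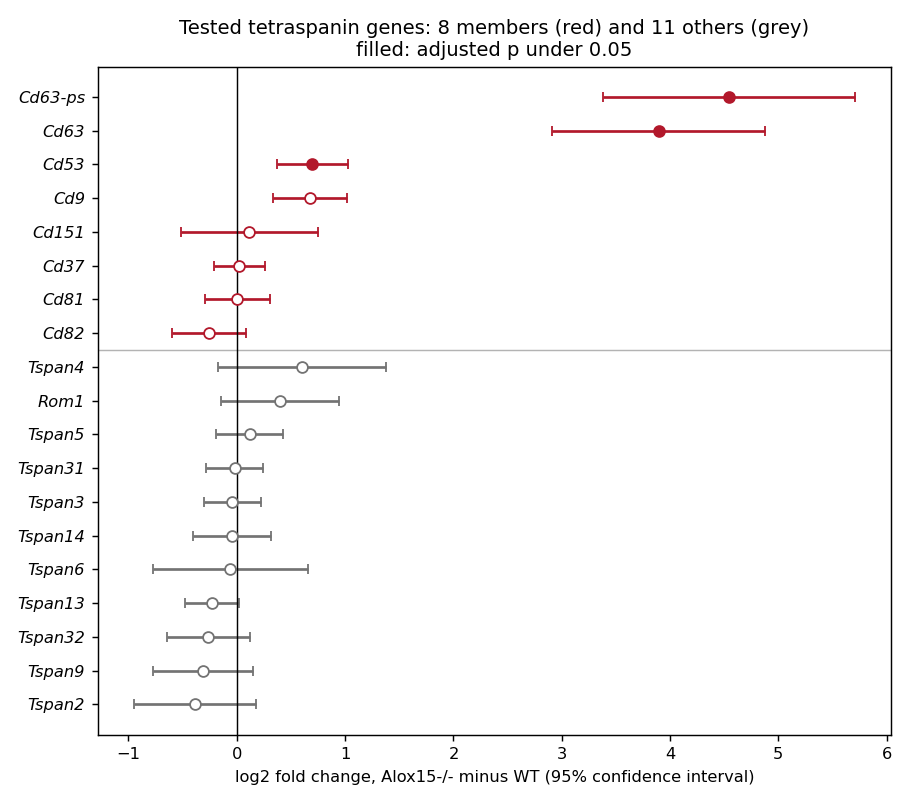
Log2 fold changes (Alox15-/- minus WT, horizontal axis) with 95% confidence intervals for the 8 genes (red) and 11 other tested tetraspanins (grey), filled where the adjusted p was under 0.05. Cd63 and Cd63-ps stood at 3.90 and 4.54, Cd53 and Cd9 at 0.70 and 0.68, and the 11 others between -0.39 and 0.60.

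After subtraction of each group's mean, the levels of Cd63 and Cd63-ps followed each other over the 8 libraries (Pearson's r of log2 CPM 0.92), as did Cd81 and Cd82 (0.94) and Cd9 and Cd53 (0.90). Cd63 and Cd53 did not (0.10). These values describe 8 libraries that share their scaling factors across genes. The 2 lists that follow hold the highest 5 values over all other tested genes. With only 8 libraries, values this high can arise by chance, so they are given as a description only. Among the other tested genes, those most like Cd63 by this measure were Dfna5 (0.98), Cep76 (0.98), Plcg2 (0.96), Wdpcp (0.95) and Ctsg (0.95). Of these, Ctsg, which encodes the granule protease cathepsin G, was the only one also past the threshold, at 27.1 against 1.29 CPM (log2 fold change 4.42, edgeR, adjusted p = 8.2e-05). Those most like Cd9 were Acp2 (0.997), Slc6a6, Pgrmc1 and Sdf4 (0.98 each) and Eif3j1 (0.97), with log2 fold changes of -0.41 to 0.17, none past the threshold.

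The summed markers of mast cells and basophils, eosinophils, neutrophils and erythroid cells, like Cd63, had their higher levels in the Alox15-/- libraries, and their part in the results was not tested. Of the 13 mast cell and basophil markers, 10 were tested and 9 were called higher, beside 1.05% of all genes, and Kit was not called. Of these 9, 5 (Cd200r3, Prss34, Cma1, Hdc and Ms4a2) reached 2 CPM, before TMM correction as in the filter, in no WT library and entered the test only through the libraries labelled Alox15-/-, which leaves 4 of 5. The list summed to 148 to 387 CPM in the libraries labelled Alox15-/- and to 60.2 to 86.5 CPM in WT. Fcer1a, the ligand-binding chain of the IgE receptor, measured 14.5, 27.4, 13.6 and 11.2 CPM against 0.157, 0.801, 1.92 and 2.10 CPM. Eosinophil markers summed to 21.7 to 78.4 and 1.25 to 10.4 CPM, with both tested genes of 9 called higher. The highest WT sum, in WT 2, came largely from Ccr3, a chemokine receptor gene that was not tested and stood at 6.25 CPM there (39 tags), against a mean of 0.108 CPM in the libraries labelled Alox15-/-. Neutrophil markers summed to 14.0 to 305 and 4.70 to 8.40 CPM, with 3 of 4 tested genes of 10 called higher, and erythroid markers to 940 to 3545 and 93.6 to 160 CPM, with 5 of 7 tested genes of 11. The neutrophil genes S100a9 and Ngp and the erythroid gene Alas2 again entered the test only through the libraries labelled Alox15-/-, which leaves 1 of 2 and 4 of 6. None of these markers was at 0 in all 8 libraries, but Mcpt4, Prg3, Ear2, Ear6 and Mmp8 were at 0 in every WT library. From highest to lowest, the level of Cd63 ran through libraries 2, 3, 1 and 4 among those labelled Alox15-/-, the eosinophil and neutrophil sums through 2, 3, 1 and 4, the mast cell and basophil sum through 2, 1, 3 and 4, and the erythroid sum through 3, 2, 1 and 4. Among the WT libraries, Cd63, the mast cell and basophil sum and the neutrophil sum ran through 4, 3, 2 and 1, the eosinophil sum through 2, 4, 3 and 1, and the erythroid sum through 4, 2, 3 and 1. Mpo, which encodes the peroxidase of neutrophil granules, was the tested neutrophil marker that did not pass.

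The sums of the other lists differed less between the genotypes. Their calls stand beside 1.05% of all genes tested called higher and 0.197% called lower. Of the myeloid markers, 3 of 6 tested were called higher, or 2 of 5 without Fcgr3, which reached 2 CPM in no WT library (179 to 286 and 115 to 157 CPM summed), among them Tyrobp, a signalling adaptor, at 6.47 to 17.9 against 0.908 to 2.10 CPM. Of the NK and γδ T cell markers, 6 of 9 tested were called higher, or 5 of 8 without Klrc1, which was under 2 CPM in every WT library before TMM correction and at 2.04 CPM in WT 1 after it (103 to 214 and 40.2 to 62.6 CPM). The platelet markers, of interest beside Cd9, summed to 9.66 to 28.0 and 5.64 to 8.78 CPM, with 0 of 2 tested genes past the threshold and Pf4 at 0.483, 6.51, 2.65 and 0.432 CPM against 0, 0, 0 and 0.420 CPM. Of the 2, Itga2b entered the test only through the libraries labelled Alox15-/-. It averaged 3.33 against 0.867 CPM without overlap and narrowly missed the threshold (log2 fold change 1.77, edgeR, adjusted p = 0.056). Itgb3 had overlapping groups (log2 fold change 0.30, edgeR, adjusted p = 0.828). The B cell sum was 10.9 to 13.6 and 13.2 to 34.2 CPM, with 1 of 3 tested genes called lower, Ms4a1, which reached 2 CPM in the WT libraries only. Without Alox15-/- libraries 2 and 3, which held the most neutrophil and eosinophil marker tags, the log2 fold change of Cd63 was 3.15 (edgeR, adjusted p = 0.0020). Under the same omission Cd53 stood at 0.72 and Cd9 at 0.65, with adjusted p-values of 0.298 and 0.455, and Cd63-ps no longer reached the filter. Libraries 1 and 4, which were kept, still exceeded every WT library in the mast cell and basophil, eosinophil, neutrophil and erythroid sums, so this omission does not separate Cd63 from the markers.

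**Figure D4:**
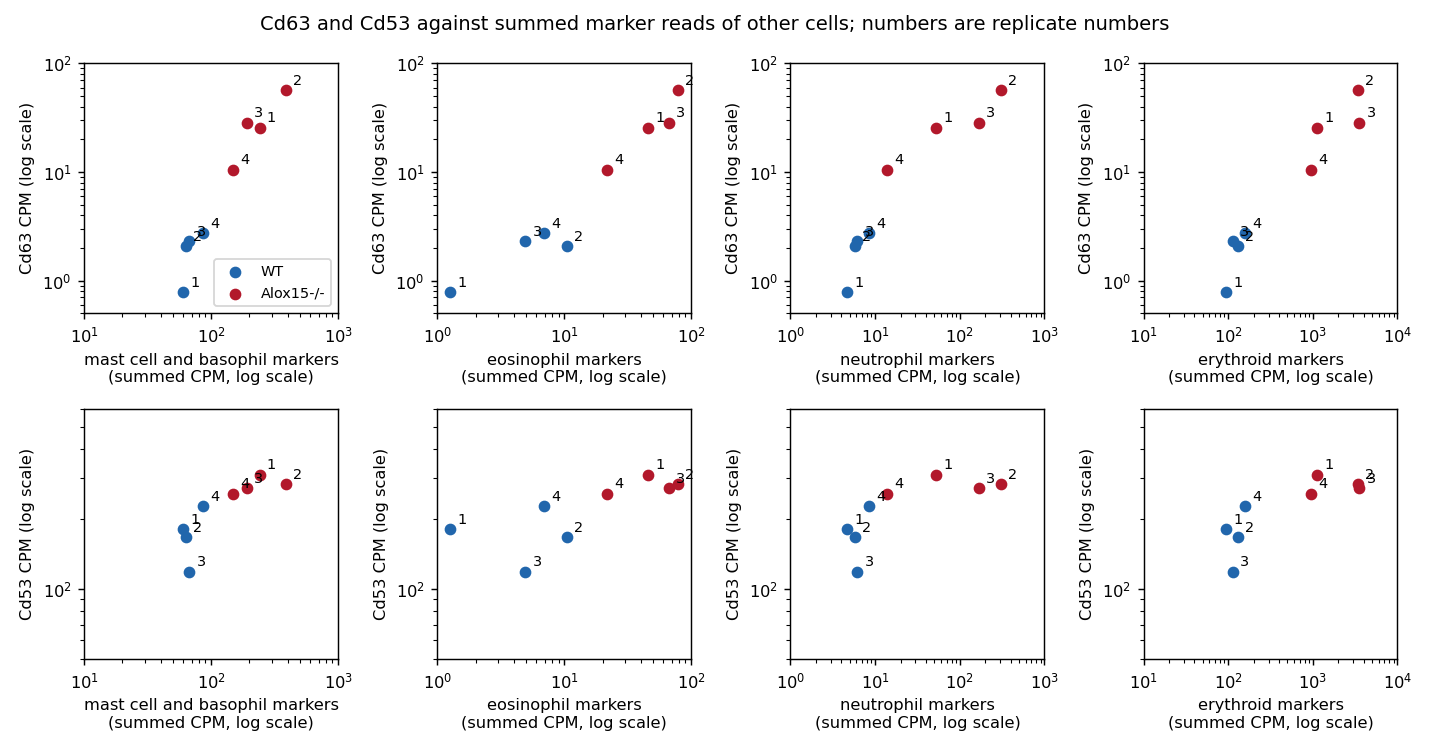
Cd63 (upper row) and Cd53 (lower row) in CPM against the summed CPM of 4 marker lists, all axes logarithmic, with 1 point per library, numbered by replicate, for WT (blue) and Alox15-/- (red). Cd63 was highest, at 57.0 CPM, in the library with the highest neutrophil sum, 305 CPM, whereas Cd53 stayed between 257 and 312 CPM across the libraries labelled Alox15-/-.

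Of 24 other tetraspanins, 22 were in the table and 11 were tested, of which 0 passed the threshold, 3 had positive and 8 negative log2 fold changes, and 0 had an unadjusted p under 0.05 (edgeR). Over all genes tested, 1.24% passed, 51.8% had negative log2 fold changes and 7.84% had an unadjusted p under 0.05, so that 0 calls among 11 genes is near the background. Across the 9 other tools and settings and the 8 fits that left out a library, 0 passed as well. Their median log2 fold change was -0.05, from -0.39 for Tspan2 (6.58 against 8.43 CPM, adjusted p = 0.786) to 0.60 for Tspan4 (5.49 against 3.65 CPM, adjusted p = 0.750). Tspan13, at 337 and 395 CPM, and Tspan31, at 72.2 and 73.2 CPM, had overlapping groups as well. The 11 that were in the table but not tested averaged at most 1.02 CPM, the value of Tspan33 in the libraries labelled Alox15-/-. The TspanC8 tetraspanins, which carry the protease ADAM10 to the cell surface, were represented by Tspan5 (log2 fold change 0.12) and Tspan14 (-0.05), and Adam10 itself stood at 0.00 (113 and 113 CPM), none past the threshold (adjusted p = 0.889, 0.971 and 0.998).

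Of 21 partners of tetraspanins, all in the table, 14 were tested and 0 passed the threshold (edgeR), while 4 (28.6%) had an unadjusted p under 0.05, beside 7.84% of all genes tested. The other tools and settings also called 0, except that 1 partner was called with no filter on low counts. Their log2 fold changes were negative for 12 of 14 (85.7%), beside 51.8% of all genes, with a median of -0.18. The integrin chain genes Itgb4, at -0.77 (1.30 against 2.29 CPM, adjusted p = 0.664), and Itga4, at 0.18 (18.4 against 16.2 CPM, adjusted p = 0.912), marked the ends of the range. For 3 of the 14 (21.4%, beside 5.25% of all genes) the groups did not overlap, each lower in the libraries labelled Alox15-/-. Cd4, the coreceptor that associates with CD81 and CD82, measured 297, 210, 278 and 290 CPM in the libraries labelled Alox15-/- 1 to 4 and 329, 334, 328 and 352 CPM in WT 1 to 4, a log2 fold change of -0.32 (adjusted p = 0.357). Itgal and Itgb2, which encode both chains of the leukocyte integrin LFA-1, had log2 fold changes of -0.32 and -0.27 (adjusted p = 0.259 and 0.316). Igsf8 and Ptgfrn, which encode immunoglobulin superfamily proteins that bind CD9 and CD81 directly, stood at -0.01 and -0.19 (adjusted p = 0.998 and 0.771).

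The genes of the compartments in which CD63 resides were tested as lists of late endosome and lysosome membrane proteins and of extracellular vesicle release. All 15 lysosome genes were tested and 0 passed the threshold, 1 had an unadjusted p under 0.05, and 13 of 15 log2 fold changes (86.7%) were negative, with a median of -0.11 (edgeR). Beside 1.24% called and 7.84% with an unadjusted p under 0.05 over all genes, the counts of 0 and 1 are near the background, while 51.8% of all genes had negative values. Lamp1 and Lamp2, the main lysosome membrane glycoproteins, stood at -0.03 and -0.09, the cystine exporter gene Ctns at -0.62 (4.57 against 7.11 CPM, adjusted p = 0.536) and Slc38a9 at 0.09 (adjusted p = 0.948). Of 20 vesicle release genes, 18 were in the table and 17 were tested, of which 0 passed and 3 (17.6%) had an unadjusted p under 0.05, with a median of -0.01. Both lists had 0 calls in each of the other tools and settings as well. Sdcbp, which encodes the CD63-binding adaptor syntenin, had the highest value, 0.35 (78.0 against 60.9 CPM, adjusted p = 0.560), and Vps4a the lowest, -0.13 (adjusted p = 0.838). Chmp4b, an ESCRT subunit, measured 128, 132, 125 and 141 CPM against 108, 107, 106 and 110 CPM, groups that did not overlap, with a log2 fold change of 0.29 that missed the threshold (adjusted p = 0.269). It was the only vesicle gene tested without overlap (5.88%), beside 5.25% of all genes.

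**Figure D5:**
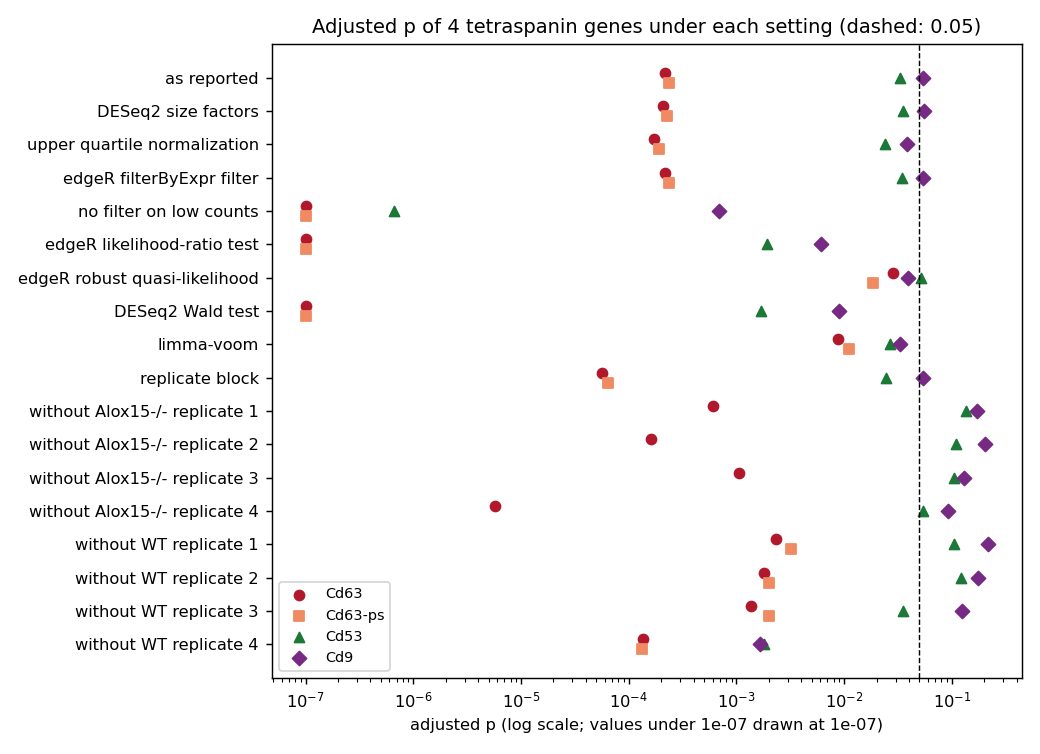
Adjusted p (log axis) of Cd63, Cd63-ps, Cd53 and Cd9 under each tool, filter, scaling and omission of 1 library, with the threshold of 0.05 dashed and values under 1e-07 drawn at 1e-07. Cd63 stayed left of the threshold in all settings, Cd53 and Cd9 lay on both sides of it, and Cd63-ps has no point in the 4 fits that left out an Alox15-/- library because it did not reach the filter there.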

How the data were processed

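MACE-seq libraries of Tregs on day 2 were analysed from the raw counts per gene symbol that the authors deposited without normalization. The submitters' processing notes name Bowtie, edgeR and GRCm38 with no roles, and the labels name a small RNA kit where the methods name the MACE-Seq Kit. Removal of duplicate tags is not given in the sources used here. Groups followed the labels. The study's filter, 2 CPM or more in 4 libraries or more, applied before TMM correction, kept 12700 of 28239 symbols, which were tested with edgeR 4.0.16 in R 4.3.3 (TMM scaling, two-sided quasi-likelihood test, no pairing, Benjamini-Hochberg adjustment over all genes tested, threshold 0.05). The SE is the log2 fold change divided by the square root of F. The steps were tested on simulated data. DESeq2 1.42.0, limma-voom (limma 3.58.1), other scalings and filters, a replicate block and omission of each library were the alternatives.

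The 8 members and all gene lists were chosen with earlier results of these data known. Named genes were the members, Alox15, the 5 genes most like Cd63 and Cd9, a defining marker of each main cell class and, in the tetraspanin, partner, lysosome and vesicle lists, every gene past the threshold and the largest rise and fall. Other listed genes and markers named beside these were chosen after their values were seen. 1 listed gene is not reported here. Positions came from GENCODE vM21 and start regions from RefSeq, in which all 4 genes shown matched. Transcripts were aligned in Python 3.11.15 with biopython 1.88. Tables were read by pandas 2.3.3, and matplotlib 3.10.9 made the plots.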

Additional observations from a re-analysis of the deposited data

How the results depend on the processing

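Cd63 and the summed pair passed the threshold in the 8 fits that left out a library and under the 9 other tools and settings, with adjusted p-values of at most 0.0284 and 0.0416 under the latter. The number of the 8 genes called was 2 to 4 under those settings and with the pair summed, and 1 to 4 when a library was left out. The 4 fits that left out an Alox15-/- library called only Cd63, because Cd53 missed the threshold and Cd63-ps reached 2 CPM in too few libraries to be tested, and a filter of 3 libraries, chosen after seeing the data, let Cd63-ps in again only through the group where it was high (log2 fold change 4.07 to 4.88), so that its calls there do not bear on stability. Cd53 missed the threshold with edgeR's robust quasi-likelihood test (adjusted p = 0.0522), and Cd9 passed in 6 of the 9 other settings. The number of genes called over the whole table was 388 with no filter on low counts, 86 to 172 when a library was left out, and 60 without Alox15-/- libraries 2 and 3, an omission chosen after seeing the data that left 1 of the 8 genes called. With no filter, 1 tetraspanin partner was called, and the log2 fold change of Cd81 was -0.0156 (adjusted p = 0.970). When a library was left out, the log2 fold change changed sign for Cd81 (-0.0756 to 0.118), Cd37 (-0.0372 to 0.0968) and Cd151 (-0.0518 to 0.383), none of which passed. The median of all genes moved between -0.01 and 0.02 under the 3 scalings. The replicate numbers did not pair the libraries (correlations of same-numbered libraries -0.18 to 0.17, with 1 of 4 best with its own number), and a fit with the replicate block called 146 genes and 3 of the 8, the same 3. Depth limits Cd151 and the WT values of Cd63 and Cd63-ps, which rest on 3 to 39 tags per library.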

Other observations

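Itga3 and Rab27b lay under the filter on low counts and were not tested, although their groups did not overlap. Itga3, a laminin-binding integrin chain and partner of CD151, measured 1.21, 0.543, 1.70 and 1.15 CPM in the libraries labelled Alox15-/- 1 to 4 and 2.67, 1.92, 2.22 and 2.73 CPM in WT 1 to 4. Rab27b, a GTPase of granule and vesicle release, measured 0.966, 1.36, 0.946 and 0.576 CPM against 0.470, 0, 0.101 and 0 CPM, from 4 to 5 tags in each Alox15-/- library. These genes rest on so few tags that their levels are given as values only.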
